A study of Mus musculus with 9 samples.

Results

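The 6 libraries of Neuro-2a (N2a) cells that carried a hairpin against Arf1 were compared with each other, 3 with the hairpin shArf1-2 against 3 with the hairpin shArf1-1. They were chosen by the hairpin in the sample labels and are 6 of the 9 libraries of the series. The deposited count columns call these libraries shArf1 and shArf2 with a replicate number, read here as shArf1-1 and shArf1-2, and the sign of each difference rests on that reading. The other 3 carried a hairpin against luciferase (shlucif) and served as the control for both. N2a is a mouse neuroblastoma line with a neuroblast character, the hairpins were delivered by lentiviral pLKO.1 vectors with a puromycin marker, and the labels give no treatment for any group. The genotype in the labels is a knockdown of luciferase or of Arf1. mRNA was enriched with oligo(dT) beads, broken into fragments and primed with random hexamers. The libraries held 12516668, 11182479 and 15594615 counts with shArf1-1 and 14659400, 13463280 and 14159344 counts with shArf1-2, beside 13786986, 13381570 and 13631004 with shlucif. Nothing in the labels says that the 3 libraries of a group came from separate cultures, so the p-values measure the spread between these samples, which may be technical.

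Arf1 is a small GTPase of the Golgi. In its GTP-bound form it recruits the COPI coatomer, which carries cargo and escaped ER proteins back from the Golgi to the ER, and it also recruits clathrin adaptors and lipid-modifying enzymes. COPII coats, assembled by the related GTPase Sar1, carry cargo in the other direction. The question put to these libraries was which functions and gene families differed between the hairpins. A difference is given throughout as the log2 change of shArf1-2 minus shArf1-1, so that a positive value means more RNA with shArf1-2. Levels are CPM, counts relative to the library total scaled by TMM factors, and levels of different genes are not compared on this scale. A gene was counted as differing when its adjusted p over 12448 tested genes was under 0.05, with edgeR's quasi-likelihood test and the adjustment of Benjamini and Hochberg, and SE is the standard error of a difference. The values of each hairpin against shlucif are given side by side and share the same shlucif libraries.

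One library stood apart from the other 5. The 22 tested replication-dependent histone genes, whose mRNAs accumulate in S phase and mostly lack a poly(A) tail, summed to 41.2, 537 and 37.4 CPM in shArf1-1 replicates 1, 2 and 3, to 55.4, 47.9 and 96.9 CPM in shArf1-2 replicates 1, 2 and 3, and to 112, 89.5 and 85.1 CPM in the shlucif libraries. Replicate 2 of shArf1-1 was the highest of the 6 hairpin libraries for 20 of these genes, and shArf1-2 replicate 3 for the other 2. The whole histone list had a median difference of -1.99 over 30 tested genes with all libraries and of 0.69 without shArf1-1 replicate 2, so that its direction turned with that library left out. With all libraries 1 of its 30 tested members passed the threshold (3.33%, beside 14.4% over all tested genes). This was H1f2 at 0.52 (SE 0.11, adjusted p = 0.00102 in the edgeR quasi-likelihood fit after Benjamini-Hochberg adjustment). Without shArf1-1 replicate 2 the number was 4, beside 1977 of 12647 over all tested genes. On the second principal component of the 6 libraries, which held 24.2% of the variance, this library lay at -22.8 and shArf1-1 replicates 1 and 3 at 13.7 and 16.2, while the first component (34.2%) parted the hairpins. Without it the number of genes that differed was 1977, and without both it and shArf1-2 replicate 3, a choice made after seeing the data, the number was 1599.

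**Figure D1:**
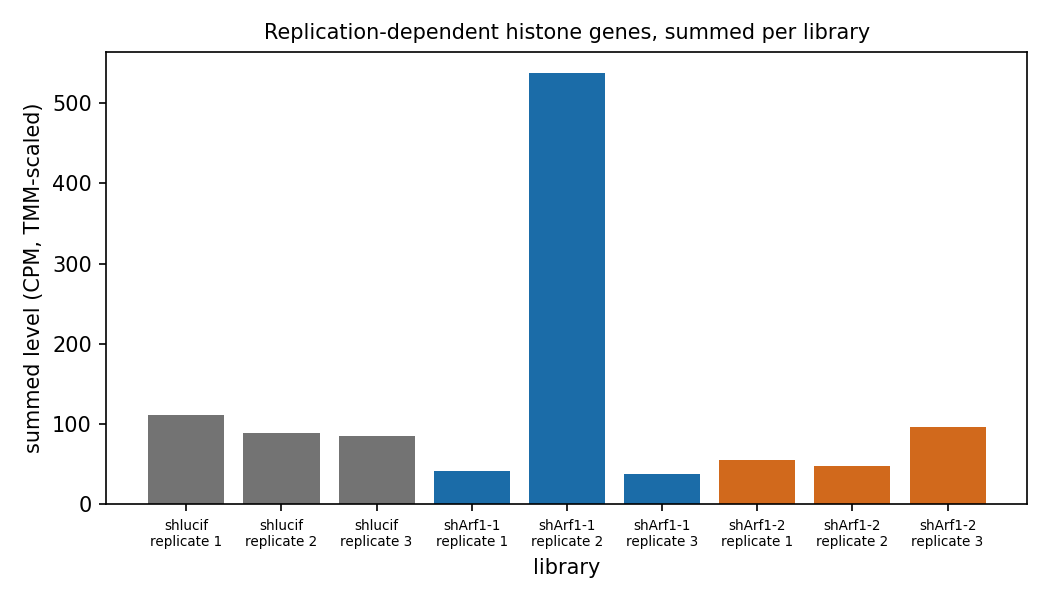
Summed level of 22 replication-dependent histone genes in each of the 9 libraries (y axis, TMM-scaled CPM, starting at 0), with 1 bar per library named by group and replicate on the x axis. The bar of shArf1-1 replicate 2 reaches 537 CPM, and the other 8 libraries lie between 37.4 and 112 CPM.

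Arf1 was lower with both hairpins than with shlucif and lowest with shArf1-1. It was at 712, 672 and 707 CPM in the shlucif libraries, 271, 265 and 262 CPM in the shArf1-1 libraries and 341, 318 and 352 CPM in the shArf1-2 libraries. The lowest shArf1-2 library was above the highest shArf1-1 library, and the difference was 0.34 (SE 0.05, adjusted p = 1.16e-05 in the edgeR quasi-likelihood fit after Benjamini-Hochberg adjustment). Against shlucif the log2 change was -1.39 with shArf1-1 and -1.05 with shArf1-2. Of the other 5 Arf GTPases, Arf4, which acts with Arf1 in the early secretory pathway, also differed. Arf4 was at 142, 147 and 154 CPM with shlucif, 189, 166 and 190.1 CPM with shArf1-1 and 155, 147 and 157 CPM with shArf1-2, a difference of -0.25 (SE 0.06, edgeR adjusted p = 0.003). The shArf1-2 libraries overlapped the shlucif libraries, and the shArf1-1 libraries lay above both groups. The remaining members did not pass the threshold. The 95% interval of the difference was -0.14 to 0.10 for Arf2, -0.06 to 0.14 for Arf3, -0.08 to 0.22 for Arf5 and -0.08 to 0.17 for Arf6, the plasma membrane member of the family.

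**Figure D2:**
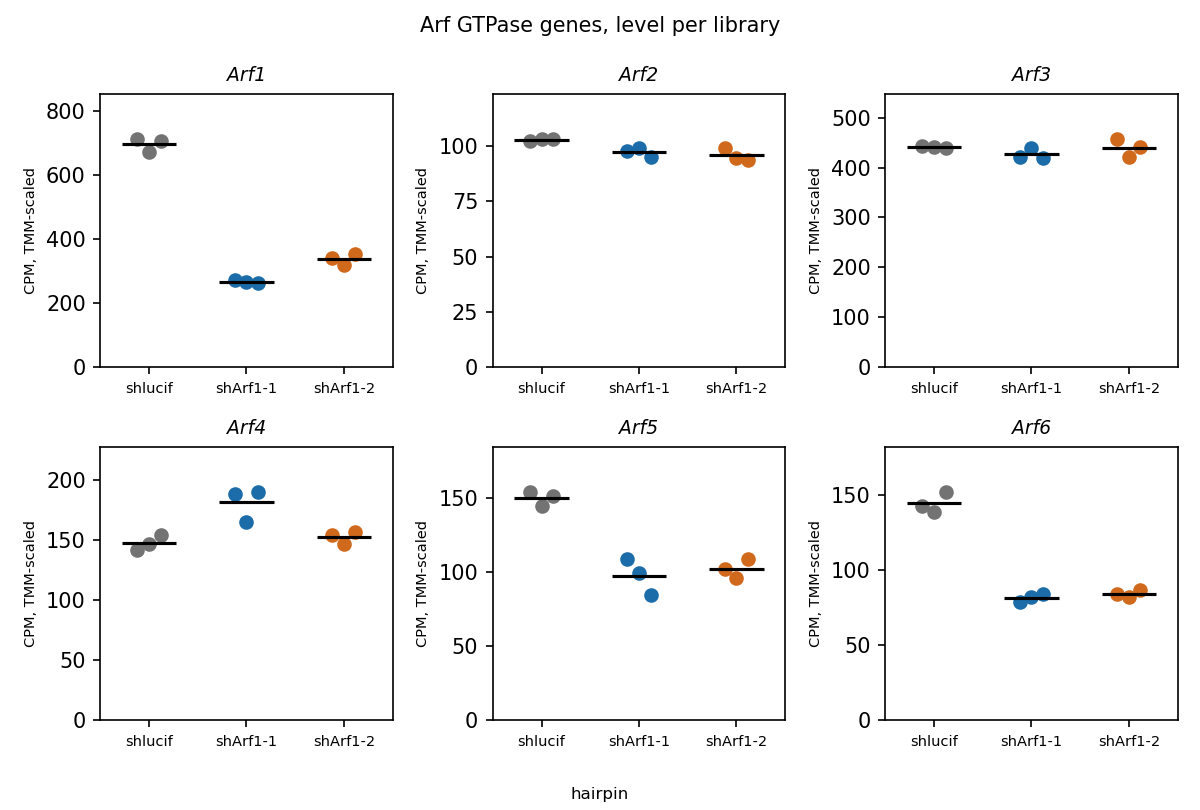
Level of the 6 Arf GTPase genes in each of the 9 libraries (y axis of each panel, TMM-scaled CPM, starting at 0). Points are single libraries and horizontal lines are group means over 3 libraries. Arf1 lies between 262 and 271 CPM with shArf1-1 and between 318 and 352 CPM with shArf1-2, and Arf4 is the other panel in which the 2 hairpin groups differed past the threshold.

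Both hairpins were designed against the coding sequence of Arf1, which GRCm38 places on chromosome 11, minus strand. The target of shArf1-1 covers bases 59213222 to 59213242 in exon 3 of 5, from codon 54 to codon 60, and holds 7 G or C bases of 21. The target of shArf1-2 covers bases 59213386 to 59213406 in exon 2, from codon 28 to codon 34, and holds 9 G or C bases. The targets and the guide strands are printed because they are what was designed to differ between the groups, with the guide's bases 2 to 8, the seed, in capitals.
shArf1-1 target: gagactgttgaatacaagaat
shArf1-1 guide: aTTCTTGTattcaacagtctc
shArf1-2 target: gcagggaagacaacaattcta
shArf1-2 guide: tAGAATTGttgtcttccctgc
Among the other Arf transcripts the nearest sites were in Arf3 for shArf1-1, with 3 mismatches, and in Arf4 for shArf1-2, with 4. These sites are shown with the mismatched bases in capitals.
Arf3 site for shArf1-1: gagacAgtGgaataTaagaat
Arf4 site for shArf1-2: gcTggCaagacGacaattctG
Counted from 1 at the 5′ end of the target, with the target's base first, the substitutions were T6A, T9G and C15T in Arf3 and A3T, G6C, A12G and A21G in Arf4. Arf3 was at 422, 439 and 419.9 CPM with shArf1-1 and 457, 422 and 441 CPM with shArf1-2, and the groups overlapped. Arf4 was lower with shArf1-2 than with shArf1-1 and had a log2 change of 0.05 against shlucif with shArf1-2.

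No annotated transcript matched a target with 1 or 2 mismatches. Perfect copies lay in the pseudogene AC127331.2 for both targets and in Gm19587 for the shArf1-2 target. Neither was among the genes tested, and how reads shared with Arf1 were assigned is not given in the sources used here, so that the Arf1 level carries this uncertainty. With 3 mismatches, the tested genes were Arf3, Ift81, Med22 and Trim23 for shArf1-1 and Arl5c and Eif5b for shArf1-2. Of these 6, Eif5b, a translation initiation factor, differed. It was at 163, 179 and 172 CPM with shlucif, 183, 176 and 197 CPM with shArf1-1 and 206, 214 and 208 CPM with shArf1-2, a difference of 0.17 (SE 0.06, adjusted p = 0.0286 in the edgeR quasi-likelihood fit after Benjamini-Hochberg adjustment), and was thus higher with the hairpin whose target it resembles. Eif5b lost its call without shArf1-1 replicate 1 or 2 and without shArf1-2 replicate 1, 2 or 3. The 95% interval of the difference was -0.18 to 0.18 for Ift81, -0.22 to 0.01 for Med22, -0.17 to 0.14 for Trim23 and -0.02 to 1.64 for Arl5c, which had 6 to 24 counts per hairpin library. With 4 mismatches, 14 tested genes matched the shArf1-1 target and 15 the shArf1-2 target, and of these 29 genes 3 differed (10.3%, background 14.4%). They were Polr2a for shArf1-1 (0.26) and Arf4 and Snrpg for shArf1-2, of which Polr2a and Snrpg are named after their values were seen. Snrpg differed by -0.24 and lost its call without shArf1-1 replicate 1 or shArf1-2 replicate 1 or 2. Against shlucif the log2 change of Polr2a was 0.56 with shArf1-1 and 0.82 with shArf1-2.

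In all, 1798 of 12448 tested genes (14.4%) differed between the hairpins, 869 (6.98%) higher and 929 (7.46%) lower with shArf1-2. Most of these differences were small. Their median size was 0.32 on the log2 scale, 63 genes were higher and 17 lower by at least 1, and the lower and upper quartiles over all tested genes were -0.12 and 0.14. The 3 libraries of each hairpin did not overlap for 1724 of the 1798 genes and for 29.9% of all tested genes. Scaling by library size gave 975 higher and 753 lower and a median over all genes of 0.02. The number that differed fell to 1159 without shArf1-1 replicate 1 and to 1194 without shArf1-2 replicate 1. Each gene given below as higher or lower also passed with each of the 9 libraries left out, unless a library is named beside it. Where a list had 1 or 2 members on one side, that count could move with a single library, and nothing below rests on it. The counting of strand is not given in the sources used here, so reads of overlapping genes on opposite strands may be mixed.

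Among the 12 largest positive differences of genes whose hairpin libraries did not overlap and that reached 5 CPM with either hairpin, Septin10 had the smallest p. Septin10, a GTP-binding cytoskeletal protein, was at 137, 139 and 138 CPM with shlucif, 54.3, 50.7 and 56.0 CPM with shArf1-1 and 126, 114 and 111 CPM with shArf1-2. Its shArf1-2 libraries were above all shArf1-1 libraries, and the difference was 1.12 (SE 0.06, adjusted p = 1.30e-14 in the edgeR quasi-likelihood fit after Benjamini-Hochberg adjustment). Other large positive differences were 1.22 for Insl6, an insulin-like peptide, 1.12 for the adenylyl cyclase Adcy4, 1.08 for the inositol trisphosphate kinase Itpka, 1.06 for Pdzd7, 1.06 for the secreted matrix protein Tinagl1, 1.05 for 1810010H24Rik and 1.03 for the tight junction protein Tjp3. Keratin 8 (Krt8), a scarce one of the 12, had 28 to 35 counts in the shArf1-1 libraries and 60 to 86 in the shArf1-2 libraries.

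In the other direction, cyclin D1 (Ccnd1), which drives entry into S phase with Cdk4 and Cdk6, had the firmest difference. It was at 349, 329 and 328 CPM with shlucif, 290.1, 313 and 281 CPM with shArf1-1 and 164, 171 and 172 CPM with shArf1-2. The shArf1-2 libraries formed the lowest group by a wide margin, with a difference of -0.80 (SE 0.05, adjusted p = 3.34e-13 in the edgeR quasi-likelihood fit after Benjamini-Hochberg adjustment), and the log2 change against shlucif was -0.19 with shArf1-1 and -0.99 with shArf1-2. Kdelr3, a receptor that returns ER proteins from the Golgi, was at 10.4, 9.42 and 9.76 CPM with shArf1-1 and 5.17, 6.19 and 4.88 CPM with shArf1-2, a difference of -0.87 (SE 0.15, edgeR adjusted p = 6.89e-05). Further genes lower with shArf1-2 were Gk5 (-0.90), a glycerol kinase family member, Fam114a1 (-0.88), the adenylate kinase Ak5 (-0.87), Naa38 (-0.87), a subunit of an N-terminal acetyltransferase, and the hydrolase Bphl (-0.84). Ak5 and Naa38 were above shlucif with shArf1-1 (log2 changes of 0.89 and 0.73) and near it with shArf1-2 (0.01 and -0.15).

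Among the gene lists, that of DNA replication and repair held the most genes that were lower with shArf1-2. Of 45 tested genes on it, 25 were lower (background 7.46%), with differences between -0.70 and -0.17. The median difference of the list was -0.23, beside 0 over all tested genes. They covered origin licensing and the replicative helicase (Cdc6, Mcm4, Mcm5 and Gins1 among them) and nucleotide supply (Rrm2). Rrm2, the small subunit of ribonucleotide reductase, was at 113, 115 and 105 CPM with shlucif, 150.4, 147 and 171 CPM with shArf1-1 and 94.8, 91.7 and 101 CPM with shArf1-2, a difference of -0.70 (SE 0.06, adjusted p = 1.29e-09 in the edgeR quasi-likelihood fit after Benjamini-Hochberg adjustment). Its shArf1-1 libraries were the highest of the 9 and its shArf1-2 libraries the lowest. Cdc6, which loads the helicase at origins, was at 66.8, 59.8 and 75.1 CPM with shArf1-1 and 42.6, 43.6 and 49.1 CPM with shArf1-2, a difference of -0.58 (SE 0.08, edgeR adjusted p = 7.00e-06). Mcm5, a helicase subunit, was at 268, 242 and 236 CPM with shlucif, 292, 302 and 269.7 CPM with shArf1-1 and 208, 195 and 220.0 CPM with shArf1-2, a difference of -0.47 (SE 0.06, edgeR adjusted p = 5.25e-07). The shlucif libraries lay between those of the hairpins for Mcm5. Mcm4 differed by -0.45 and Gins1 by -0.42. Over the list, the median log2 change against shlucif was 0.15 with shArf1-1 and -0.08 with shArf1-2. With a library left out, between 21 and 25 members passed. Without the pair of hairpin libraries with the most replication-dependent histone counts, 23 passed.

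Of 44 tested genes of the mitotic cell cycle, 6 were lower (13.6%, background 7.46%) and 3 higher (6.82%, background 6.98%) with shArf1-2, with a median of -0.05 (between -0.07 without shArf1-1 replicate 1 and -0.03 without shArf1-2 replicate 2), and the 6 became 3 without shArf1-1 replicate 1. Besides Ccnd1, the lower genes with the largest differences were Cdc25a, a phosphatase of the G1 to S transition, and E2f3, a transcription factor of S-phase genes. Cdc25a was at 87.8, 88.7 and 92.8 CPM with shArf1-1 and 64.9, 59.9 and 70.3 CPM with shArf1-2, a difference of -0.47 (SE 0.07, adjusted p = 1.03e-05 in the edgeR quasi-likelihood fit after Benjamini-Hochberg adjustment). E2f3 was at 108, 109 and 111 CPM with shArf1-1 and 85.3, 79.8 and 87.4 CPM with shArf1-2, a difference of -0.38 (SE 0.06, edgeR adjusted p = 5.36e-05). For both genes all shArf1-2 libraries were below all shArf1-1 libraries. Cdc25b, the related phosphatase of mitotic entry, had the opposite sign (0.34). Cyclin D2 (Ccnd2) was counted as higher at 0, 0 and 0 counts with shArf1-1 and 3, 0 and 5 with shArf1-2, too few for a fold change, and kept its call without shlucif replicate 1 and without shArf1-2 replicate 2 but with none of the other 7 libraries left out, and not with limma.

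In the early secretory pathway, where Arf1 acts, some coat genes were lower with shArf1-2 than with shArf1-1. Of 12 tested genes of the COPI coat and its KDEL receptors, 8 were lower (66.7%, background 7.46%), with a median difference of -0.23. Their median log2 change against shlucif was 0.12 with shArf1-1 and -0.07 with shArf1-2. Copb2, a coatomer subunit, was at 176, 171 and 173 CPM with shlucif, 231, 243 and 249.5 CPM with shArf1-1 and 190.5, 172 and 182 CPM with shArf1-2, a difference of -0.41 (SE 0.05, adjusted p = 1.12e-06 in the edgeR quasi-likelihood fit after Benjamini-Hochberg adjustment). The shArf1-2 libraries were below every shArf1-1 library and overlapped the shlucif libraries. The coatomer subunits Copa and Copg1 differed by -0.25 and -0.23, and the KDEL receptor gene Kdelr2 by -0.33. Of 13 tested COPII genes, 6 were lower (46.2%, the same background), with a median of -0.19 that moved to -0.11 without shArf1-1 replicate 2. Without the pair of hairpin libraries with the most replication-dependent histone counts, 4 COPII genes were lower and the median was -0.07. With all libraries the median log2 change of the COPII list against shlucif was 0.25 with shArf1-1 and 0.03 with shArf1-2. Sec23a, part of the inner COPII shell, was at 124, 135 and 135 CPM with shlucif, 145, 127 and 141 CPM with shArf1-1 and 101, 96.0 and 94.0 CPM with shArf1-2, a difference of -0.51 (SE 0.06, edgeR adjusted p = 4.49e-07). The cargo adaptor Sec24d differed by -0.50, and the coat subunits Sec13 and Sec31a by -0.33 and -0.31. Of 23 tested Arl and Sar GTPases and their partners, 4 were lower (17.4%) and 1 higher (4.35%, background 6.98%), with a median of -0.02 (between -0.06 without shArf1-1 replicate 2 and 0 without shArf1-2 replicate 3). Sar1b, which starts COPII assembly, differed by -0.36 and Arl1, which recruits golgins at the trans-Golgi, by -0.31.

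Of 18 tested golgins and Golgi stacking genes, 5 were lower (27.8%, background 7.46%), with a median of -0.12, and 3 were lower without shArf1-2 replicate 2. Golim4, an integral Golgi protein, was at 175, 165 and 169 CPM with shArf1-1 and 142, 142 and 142 CPM with shArf1-2, a difference of -0.25 (SE 0.06, adjusted p = 0.00136 in the edgeR quasi-likelihood fit after Benjamini-Hochberg adjustment), while the golgin Golga5 differed by -0.34 and lost its call without shArf1-2 replicate 1. Of 46 tested Rab GTPases 3 were lower (6.52%, near the 7.46% over all tested genes), among them Rab6a of retrograde Golgi transport. Rab6a was at 132, 151 and 159 CPM with shlucif, 145, 119 and 143 CPM with shArf1-1 and 94.1, 93.2 and 93.9 CPM with shArf1-2, a difference of -0.53 (SE 0.07, edgeR adjusted p = 4.41e-06). Its shArf1-1 libraries overlapped the shlucif range, and its shArf1-2 libraries lay below both. Of 17 tested adaptor genes of AP-1, AP-3 and GGA, 1 differed (5.88%, background 14.4%), with a median of 0.02 (between 0.01 without shArf1-1 replicate 2 and 0.07 without shArf1-1 replicate 1). Among regulators of the Arf cycle, 3 of 21 GTPase-activating proteins were higher (14.3%) and 1 lower (4.76%), and 1 of 15 exchange factors was higher (6.67%) and 2 lower (13.3%), beside 6.98% and 7.46% over all tested genes. The 3 higher activating proteins became 1 without shArf1-1 replicate 3 and without shArf1-2 replicate 2 or 3. Agap2 differed by 0.47 and Asap1 by -0.44, both activating proteins, and the exchange factor Iqsec2 by 0.30, which did not pass without shArf1-1 replicate 1 or shArf1-2 replicate 3. The lower exchange factors became 1 without shArf1-1 replicate 1, 2 or 3 or shArf1-2 replicate 2 and did not pass without shArf1-2 replicate 1 or 3.

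**Figure D3:**
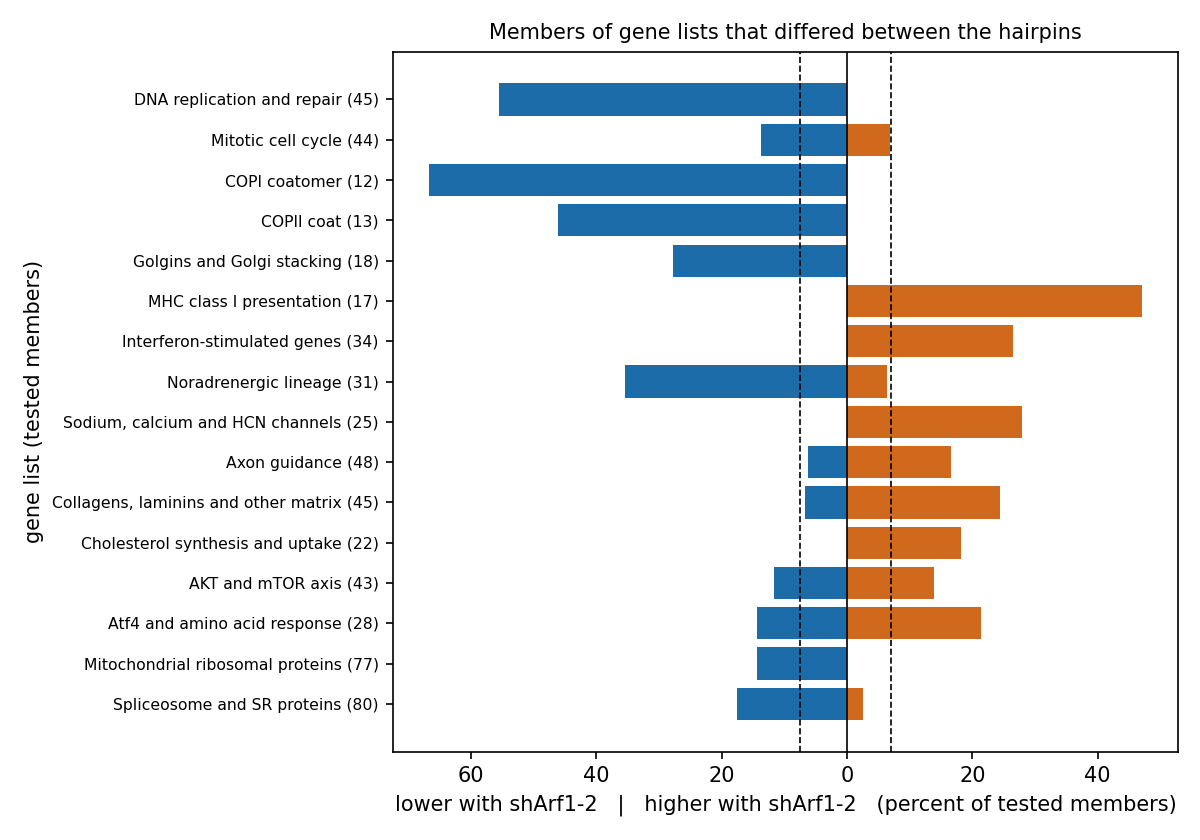
Percent of the tested members of 16 gene lists that were higher (right, positive axis) or lower (left, drawn to the left of 0) with shArf1-2 than with shArf1-1 past the threshold, with the number of tested members in brackets. Dashed lines mark 6.98% higher and 7.46% lower over all 12448 tested genes. DNA replication and repair, COPI coatomer and COPII coat extend to the left, and MHC class I presentation and interferon-stimulated genes to the right.

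Antigen presentation differed the other way. Of 17 tested genes of MHC class I presentation, 8 were higher with shArf1-2 (background 6.98%), with a median difference of 0.31. H2-K1, a classical class I heavy chain, was at 341, 308 and 322 CPM with shlucif, 175, 179 and 168 CPM with shArf1-1 and 228, 215 and 241 CPM with shArf1-2, a difference of 0.39 (SE 0.05, adjusted p = 3.85e-06 in the edgeR quasi-likelihood fit after Benjamini-Hochberg adjustment). B2m, the light chain, was at 426, 411 and 425 CPM with shlucif, 203, 179 and 204 CPM with shArf1-1 and 253, 239 and 236 CPM with shArf1-2, a difference of 0.31 (SE 0.05, edgeR adjusted p = 0.000105). For both genes the shArf1-2 libraries lay above every shArf1-1 library and below every shlucif library. The peptide transporter Tap1 differed by 0.37 and the non-classical H2-M3 by 0.73. Class I heavy chain genes are close copies of each other, and reads may have been shared among them. Of 34 tested interferon-stimulated genes, 9 were higher (26.5%, the same background), with a median of 0.19 that became 0.35 without shArf1-1 replicate 3 and 0.29 without shArf1-2 replicate 1. Ifitm3, an antiviral membrane protein, was at 136, 121 and 113 CPM with shlucif, 26.3, 26.3 and 21.7 CPM with shArf1-1 and 38.4, 36.9 and 38.0 CPM with shArf1-2, a difference of 0.62 (SE 0.09, edgeR adjusted p = 5.32e-06). Parp14 differed by 1.01, and Usp18 by 1.48 at 7 to 8 counts per shArf1-1 library and 18 to 28 per shArf1-2 library. The median log2 change of the interferon list against shlucif was -1.95 with shArf1-1 and -1.37 with shArf1-2.

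Genes of macrophages and microglia, which also use these genes, were measured beside them. The 25 genes of the list summed to 40370, 36511 and 34327 counts in the shlucif libraries, 741, 616 and 954 in the shArf1-1 libraries and 1183, 1004 and 1039 in the shArf1-2 libraries. Most of the counts with either hairpin came from Cd74, the invariant chain of MHC class II. Cd74 was at 100.2, 91.3 and 93.6 CPM with shlucif, 51.4, 48.4 and 52.1 CPM with shArf1-1 and 70.5, 64.4 and 63.3 CPM with shArf1-2, a difference of 0.38 (SE 0.07, adjusted p = 0.000217 in the edgeR quasi-likelihood fit after Benjamini-Hochberg adjustment), and was the 1 gene of 21 tested that differed (4.76%, background 14.4%). Ctss was at 0 counts in all 6 hairpin libraries, Ptprc, Csf1r, Tyrobp and Fcer1g were at 3 or fewer, and Lyz2 and Cd68 were at 2 to 10. In bulk RNA, fewer cells of a type and less RNA per cell cannot be told apart. Markers of the noradrenergic neuroblast were present in every hairpin library, with 2622 to 3578 counts of Phox2a and 15859 to 19063 of Tubb3.

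The noradrenergic identity genes of neuroblastoma cells were split. Of 31 tested genes 11 were lower (35.5%, background 7.46%) and 2 higher (6.45%, background 6.98%) with shArf1-2, with a median of -0.0036 that was 0 when libraries were scaled by library size or upper quartile and lay between -0.05 without shArf1-1 replicate 2 and -0.0035 without shlucif replicate 3. The 11 became 7 without shArf1-1 replicate 1, 5 without shArf1-2 replicate 2 and 7 without shArf1-2 replicate 3. Mycn, the proto-oncogene of this tumour type, was at 38.9, 41.7 and 41.3 CPM with shlucif, 98.0, 91.4 and 85.6 CPM with shArf1-1 and 60.2, 54.2 and 57.6 CPM with shArf1-2, a difference of -0.67 (SE 0.07, adjusted p = 2.02e-08 in the edgeR quasi-likelihood fit after Benjamini-Hochberg adjustment). The libraries fell into 3 separate levels, lowest with shlucif, intermediate with shArf1-2 and highest with shArf1-1. Dbh, the enzyme that makes noradrenaline, differed by -0.78 and lost its call without shArf1-2 replicate 2, and the factor Isl1 differed by -0.45 and the tubulin-binding Stmn4 by -0.43. Chrna7, a neuronal nicotinic receptor subunit, was lower with shArf1-2, a difference of -0.56 (SE 0.11, edgeR adjusted p = 0.000657). It was 1 of 3 of 20 tested ligand-gated receptor genes that were lower (15%, background 7.46%). The 3 became 2 without shArf1-1 replicate 1 or shArf1-2 replicate 2 or 3. The median of the list was 0.04, with 13 members above 0 and 7 below. It lay between 0.02 without shArf1-2 replicate 2 and 0.115 without shArf1-1 replicate 2.

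Of 25 tested sodium, calcium and HCN channel genes, 7 (28%, beside 6.98% over all tested genes) were higher with shArf1-2, with a median of 0.13 (between 0.08 without shArf1-2 replicate 2 and 0.17 without shArf1-1 replicate 2), and those with the largest differences encode calcium channels. Cacna1g, a T-type pore subunit, was at 67.0, 74.4 and 66.1 CPM with shlucif, 51.4, 52.9 and 41.4 CPM with shArf1-1 and 66.8, 69.9 and 66.4 CPM with shArf1-2, a difference of 0.49 (SE 0.08, adjusted p = 4.84e-05 in the edgeR quasi-likelihood fit after Benjamini-Hochberg adjustment). Its shArf1-2 libraries lay in the shlucif range and its shArf1-1 libraries below. The T-type subunit Cacna1i differed by 0.37 and the N-type subunit Cacna1b by 0.33. Cacna1h, the third T-type subunit, had 5 to 7 counts per shArf1-1 library and 25 to 32 per shArf1-2 library and differed by 2.17 (standard error 0.41). Of 39 tested potassium channel genes 4 were higher (10.3%, beside the 6.98%), which became 2 without shArf1-1 replicate 1 or 3 and 1 without shArf1-2 replicate 2. The median of the potassium channel list was 0.13. It lay between -0.02 without shArf1-2 replicate 2 and 0.14 without shArf1-2 replicate 3, so that its sign turned with 1 library. Kcnh3 differed by 0.84 and did not pass without shArf1-1 replicate 3 or shArf1-2 replicate 2. In the exocytosis machinery 7 of 33 tested genes were lower (21.2%, background 7.46%) and 3 higher (9.09%). The 7 became 4 without shArf1-1 replicate 3 and without shArf1-2 replicate 2 or 3, and 3 without shArf1-2 replicate 1. Syt7, a calcium sensor of release, differed by -0.39, whereas the SNARE genes Stx1a and Snap25 differed by 0.42 and 0.40. Snap25 was at 89.4, 97.4 and 93.2 CPM with shlucif, 93.0, 93.3 and 92.6 CPM with shArf1-1 and 123, 125 and 120.2 CPM with shArf1-2, so that the shArf1-2 libraries alone stood above the other 6. Of 15 tested granin and dense-core vesicle genes 4 were lower (26.7%) and 1 higher (6.67%, median -0.09, between -0.14 without shArf1-1 replicate 1 and -0.04 without shArf1-2 replicate 2), and 2 were lower without shArf1-1 replicate 3 or shArf1-2 replicate 1 or 2. The granin Chgb was at 447, 455 and 452 CPM with shlucif, 1327, 1350 and 1400 CPM with shArf1-1 and 989, 967 and 984 CPM with shArf1-2, a difference of -0.47 (SE 0.05, edgeR adjusted p = 9.01e-09).

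Over all tested genes 6.98% were higher with shArf1-2 and 7.46% lower. Of 48 tested axon guidance genes 8 were higher (16.7%) and 3 lower (6.25%, median 0.08, between 0.05 without shArf1-1 replicate 1 and 0.14 without shArf1-1 replicate 2), the higher ones led by the ephrin gene Efna3 (0.66, not past the threshold without shArf1-2 replicate 3) and by semaphorins. Sema4a, a transmembrane semaphorin, was at 35.4, 29.5 and 32.1 CPM with shlucif, 16.9, 20.5 and 19.1 CPM with shArf1-1 and 26.2, 25.2 and 27.0 CPM with shArf1-2, a difference of 0.47 (SE 0.10, adjusted p = 0.00106 in the edgeR quasi-likelihood fit after Benjamini-Hochberg adjustment), while Sema6c differed by 0.63 and Sema6b by 0.44. Of 45 tested collagen, laminin and other matrix genes 11 were higher (24.4%) and 3 lower (6.67%, median 0.08, between 0 without shArf1-2 replicate 2 and 0.17 without shArf1-1 replicate 2), and 7 were higher without shArf1-1 replicate 3. Lama5, a laminin chain of basement membranes, was at 322, 367 and 325 CPM with shlucif, 132, 163 and 129 CPM with shArf1-1 and 201, 236 and 203 CPM with shArf1-2, a difference of 0.60 (SE 0.09, edgeR adjusted p = 0.00111). The shArf1-1 libraries were lowest, the shArf1-2 libraries intermediate and the shlucif libraries highest. Col18a1 differed by 0.50. Of 55 tested integrins and metalloproteinases 9 were higher (16.4%) and 3 lower (5.45%, median 0.07, between 0.01 without shArf1-2 replicate 2 and 0.13 without shArf1-2 replicate 1). The 3 lower genes became 1 without shArf1-1 replicate 1 or shArf1-2 replicate 2, and without shArf1-2 replicate 3 none of them passed the edgeR test. Adamts4, an aggrecan-cleaving protease, was at 99.2, 111 and 94.5 CPM with shArf1-1 and 154, 137 and 137 CPM with shArf1-2, a difference of 0.49 (SE 0.06, edgeR adjusted p = 1.12e-06), and Itga2b differed by 0.69 but not without shArf1-1 replicate 3. Of 41 tested cadherins and protocadherins 1 was higher (2.44%) and 2 lower (4.88%, median 0.05, between -0.04 without shArf1-2 replicate 2 and 0.08 without shArf1-2 replicate 1). In the Notch pathway 4 of 21 tested genes were higher (19%) and 1 lower (4.76%), and 2 were higher without shArf1-1 replicate 3 or shArf1-2 replicate 1 or 2. The ligand Dll1 differed by 0.54 and the fringe glycosyltransferase Lfng by 0.37.

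Some matrix genes also mark fibroblasts and vessels. The 15 endothelial and fibroblast markers summed to 1456, 1359 and 1390 counts with shlucif, 397, 399 and 512 with shArf1-1 and 601, 583 and 555 with shArf1-2. With all 9 libraries summed the most abundant was Pdgfrb, and Pecam1 had 111 to 139 counts per shArf1-1 library and 128 to 172 per shArf1-2 library. Lum was at 0 counts in all 6 hairpin libraries. Of 8 tested, Pdgfrb, a growth factor receptor, and the collagen gene Col1a1 (1.41) differed (25%, background 14.4%). Col1a1 did not pass without the pair of hairpin libraries with the most replication-dependent histone counts. Pdgfrb was at 28.3, 29.6 and 30.5 CPM with shlucif, 6.92, 6.48 and 5.32 CPM with shArf1-1 and 11.2, 12.5 and 11.3 CPM with shArf1-2, a difference of 0.91 (SE 0.13, adjusted p = 8.81e-06 in the edgeR quasi-likelihood fit after Benjamini-Hochberg adjustment). The part of such markers in the matrix result was not tested. Of the astrocyte and oligodendrocyte markers 5 were tested, and Mbp had the most counts, 335 to 467 per shArf1-1 library and 440 to 507 per shArf1-2 library. In the edgeR test 0 of the 5 passed, and DESeq2 and limma called 0. An unadjusted edgeR p under 0.05 was found for 1 of the 5, beside 3405 of 12448 over all tested genes.

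Of 22 tested genes of cholesterol synthesis and uptake 4 were higher with shArf1-2 (18.2%, background 6.98%), with a median of 0.09. Mvd, an enzyme of the mevalonate pathway, was at 153, 131 and 139 CPM with shlucif, 111, 109 and 98.9 CPM with shArf1-1 and 135, 134 and 134 CPM with shArf1-2, a difference of 0.34 (SE 0.06, adjusted p = 0.000202 in the edgeR quasi-likelihood fit after Benjamini-Hochberg adjustment). Fdps, which makes farnesyl diphosphate, had 38 to 60 counts per shArf1-1 library and 102 to 125 per shArf1-2 library and differed by 1.00. The cyclase gene Lss differed by 0.24, and Hmgcs1 by 0.28 but not without shArf1-1 replicate 2 or shArf1-2 replicate 1. Of 10 tested genes of SREBP factors and their processing, 1 differed (10%, background 14.4%), with a median of 0.01. This was Lpin1, a phosphatidate phosphatase of triglyceride synthesis. Lpin1 was at 226, 224 and 219 CPM with shlucif, 54.1, 48.9 and 47.6 CPM with shArf1-1 and 83.8, 78.7 and 74.1 CPM with shArf1-2, a difference of 0.65 (SE 0.07, edgeR adjusted p = 1.01e-08). Both hairpin groups were far below shlucif, and the shArf1-1 libraries were lowest. Of 21 tested lipid droplet genes 4 were higher (19%) and 1 lower (4.76%, median 0.17, between 0.10 without shArf1-1 replicate 3 and 0.22 without shArf1-1 replicate 2), and 2 were higher without shArf1-1 replicate 3 or shArf1-2 replicate 1 or 3. Plin3, a droplet coat protein, was at 196, 188 and 194 CPM with shlucif, 52.6, 51.0 and 42.6 CPM with shArf1-1 and 64.8, 60.8 and 59.4 CPM with shArf1-2, a difference of 0.35 (SE 0.07, edgeR adjusted p = 0.000912). Of 16 tested genes of de novo fatty acid synthesis, 0 passed in the edgeR test or with DESeq2 or limma. An unadjusted edgeR p under 0.05 was found for 4 of the 16, beside 3405 of 12448 over all tested genes. The 95% interval of the difference was -0.04 to 0.16 for the desaturase Scd2 and -0.07 to 0.13 for Acly, which supplies cytosolic acetyl-CoA. Of 12 tested genes of fatty acid activation and transport 2 were higher (16.7%) and 1 lower (8.33%, background 7.46%), among them Acsl4 (0.28), which activates arachidonate, and the fatty acid binding protein gene Fabp5 (-0.30). Of 23 tested beta-oxidation genes 2 were higher (8.7%, near the background of 6.98%), among them Cpt1a (0.37), which admits fatty acids to mitochondria.

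In the AKT and mTOR axis, 6 of 43 tested genes were higher (14%, background 6.98%) and 5 lower (11.6%, background 7.46%) with shArf1-2, with a median of 0.01 (between -0.01 without shArf1-2 replicate 3 and 0.02 without shArf1-2 replicate 2). The 5 lower genes became 2 without shArf1-1 replicate 1 and 3 without shArf1-2 replicate 3. Deptor, a subunit that inhibits mTOR, was at 123, 126 and 115 CPM with shlucif, 30.9, 27.5 and 34.3 CPM with shArf1-1 and 50.7, 52.0 and 43.3 CPM with shArf1-2, a difference of 0.65 (SE 0.08, adjusted p = 1.12e-06 in the edgeR quasi-likelihood fit after Benjamini-Hochberg adjustment). Castor1, an arginine sensor upstream of mTORC1, had 39 to 51 counts per shArf1-1 library and 85 to 90 per shArf1-2 library and differed by 0.85. The Rag GTPase Rraga was at 99.4, 96.7 and 92.6 CPM with shlucif, 78.1, 73.8 and 65.8 CPM with shArf1-1 and 95.2, 93.3 and 101 CPM with shArf1-2, a difference of 0.41 (SE 0.07, edgeR adjusted p = 3.90e-05). Its shArf1-2 libraries overlapped the shlucif libraries, and its shArf1-1 libraries lay below. Mapkap1, a subunit of mTORC2, had the opposite sign (-0.46).

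Genes of the Atf4 and amino acid response went both ways, 6 of 28 higher (21.4%, background 6.98%) and 4 lower (14.3%, background 7.46%, median 0.10, between 0.06 without shArf1-1 replicate 3 and 0.13 without shArf1-1 replicate 2). Ddit3, the transcription factor CHOP, was at 83.4, 73.8 and 86.0 CPM with shlucif, 43.7, 34.5 and 32.6 CPM with shArf1-1 and 53.4, 54.4 and 52.0 CPM with shArf1-2, a difference of 0.53 (SE 0.09, adjusted p = 7.08e-05 in the edgeR quasi-likelihood fit after Benjamini-Hochberg adjustment), and Ddit4 and Trib3 differed by 0.47 and 0.38. Slc7a1, a transporter of cationic amino acids, was at 256, 252 and 245 CPM with shlucif, 432, 472 and 449.8 CPM with shArf1-1 and 314, 319 and 302 CPM with shArf1-2, a difference of -0.53 (SE 0.05, edgeR adjusted p = 2.61e-09), and Slc38a2, which carries glutamine, differed by -0.34. Of 30 tested amino acid transporters, these 2 included, 3 were higher (10%) and 4 lower (13.3%), and 1 was higher without shArf1-1 replicate 1 or 3 or shArf1-2 replicate 1 or 3. For Slc7a1 both hairpin groups were above shlucif, and the shArf1-1 libraries were highest. Of 31 tested ER chaperones and genes of the unfolded protein response 6 were lower (19.4%) and 3 higher (9.68%, median -0.08, between -0.11 without shArf1-2 replicate 1 and -0.04 without shArf1-1 replicate 3). The 6 became 1 without shArf1-1 replicate 1, 3 without shArf1-2 replicate 1 and 2 without shArf1-2 replicate 2 or 3, and the 3 became 1 without shArf1-1 replicate 3 or shArf1-2 replicate 3. Sec61b, part of the ER translocation channel, differed by -0.27. Of 18 tested hypoxia response genes 4 were higher (22.2%) and 1 lower (5.56%, median 0.08, between 0.04 without shArf1-1 replicate 2 and 0.13 without shArf1-2 replicate 1). Without the pair of hairpin libraries with the most replication-dependent histone counts the median of the hypoxia list was -0.02. The ER oxidase Ero1a differed by 0.47 and the vascular growth factor Vegfa by 0.31.

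Of 11 tested genes of the mitochondrial genome 3 were lower with shArf1-2 (27.3%, background 7.46%), with wide spread between libraries. Genes of the mitochondrial genome took 1.31%, 1.03% and 1.08% of all counts in shArf1-1 replicates 1, 2 and 3 and 0.656%, 0.949% and 0.721% in shArf1-2 replicates 1, 2 and 3, beside 0.734%, 0.861% and 0.758% with shlucif. The median difference was -0.53. The 3 became 1 without shlucif replicate 1 or shArf1-2 replicate 3, and 7 without shArf1-2 replicate 2, whose share was the highest of its group. mt-Nd1, a complex I subunit, was at 526, 565 and 511 CPM with shlucif, 1488, 1124 and 1344 CPM with shArf1-1 and 768, 907 and 847 CPM with shArf1-2, a difference of -0.65 (SE 0.10, adjusted p = 0.00153 in the edgeR quasi-likelihood fit after Benjamini-Hochberg adjustment). Its groups did not overlap. Of 83 tested nuclear genes for oxidative phosphorylation subunits 11 were lower (13.3%, median -0.09, between -0.11 without shArf1-1 replicate 2 and -0.06 without shArf1-1 replicate 1), and 6 were without shArf1-1 replicate 1 and 7 without shArf1-2 replicate 1 or 2. Sdhd, a membrane anchor of complex II, was at 104, 93.5 and 96.3 CPM with shlucif, 151, 151 and 129 CPM with shArf1-1 and 104, 106 and 107 CPM with shArf1-2, a difference of -0.44 (SE 0.06, edgeR adjusted p = 6.75e-06). The shArf1-2 libraries were closer to shlucif than the shArf1-1 libraries were. Of 77 tested mitochondrial ribosomal proteins 11 were lower (14.3%, median -0.08), which became 5 without shArf1-1 replicate 1 or shArf1-2 replicate 2, 4 without shArf1-1 replicate 3, 6 without shArf1-2 replicate 1 and 7 without shArf1-2 replicate 3. Mrpl57 and Mrpl54, subunits of the large mitochondrial ribosomal subunit, differed by -0.44 and -0.44.

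Among genes of RNA processing, 14 of 80 tested spliceosome and SR protein genes were lower (17.5%, background 7.46%) and 2 higher (2.5%, background 6.98%) with shArf1-2 (median -0.08). The 14 became 8 without shArf1-1 replicate 1, 9 without shArf1-1 replicate 3 or shArf1-2 replicate 1 or 3, and 7 without shArf1-2 replicate 2. Lsm4 and Lsm6, which belong to the Lsm ring on U6 snRNA, differed by -0.46 and -0.47. Lsm4 was at 182, 171 and 187 CPM with shlucif, 179, 189 and 163 CPM with shArf1-1 and 116, 128 and 141 CPM with shArf1-2, and the shArf1-2 libraries were the lowest of the 9. Over the whole spliceosome list, however, the median log2 change against shlucif was 0.22 with shArf1-1 and 0.13 with shArf1-2. In the machinery of RNA interference, which processes and uses hairpins, 3 of 17 tested genes were lower (17.6%, median -0.09, between -0.11 without shArf1-1 replicate 1 and -0.05 without shArf1-1 replicate 3), among them Tnrc6b, a silencing partner of Argonaute that limma did not call, at -0.26 (SE 0.07, adjusted p = 0.00572 in the edgeR quasi-likelihood fit after Benjamini-Hochberg adjustment). Among DNA methyltransferases and histone-modifying enzymes 7 of 75 were higher (9.33%) and 2 lower (2.67%), beside 6.98% and 7.46% over all tested genes (median 0.02, between -0.02 without shArf1-1 replicate 1 and 0.03 without shArf1-2 replicate 1), and the 7 became 4 or 3 without any 1 of shArf1-1 replicates 1 and 3 and shArf1-2 replicates 1, 2 and 3. Dnmt3a, a de novo DNA methyltransferase, was at 78.3, 79.6 and 72.6 CPM with shlucif, 112, 125 and 128 CPM with shArf1-1 and 70.1, 83.0 and 73.8 CPM with shArf1-2, a difference of -0.69 (SE 0.07, edgeR adjusted p = 9.01e-09). The shArf1-2 libraries overlapped the shlucif libraries, and the shArf1-1 libraries lay above both.

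By the KEGG annotation in the deposited table, of 5168 tested genes with a pathway, 7.99% were higher and 7.88% lower. In DNA replication 13 of 35 tested genes were lower (median -0.17), in Mismatch repair 6 of 22 (median -0.11), and in Protein processing in endoplasmic reticulum 30 of 154, beside 11 higher. Cell cycle had 20 of 117 lower and 7 higher. On the other side, Cell adhesion molecules had 16 of 75 higher and 4 lower (median 0.15), ECM-receptor interaction 13 of 52 higher and 4 lower, Antigen processing and presentation 10 of 42 higher and 1 lower, and Glycerolipid metabolism 11 of 49 higher and 4 lower. These pathways are examples and not the top of a ranking, and others had similar shares. Protein export had 6 of 27 lower and 1 higher, and Pyrimidine metabolism 9 of 45 lower and 1 higher. Th17 cell differentiation had 15 of 67 higher and 5 lower. Pathways share genes with each other and with the lists above. By position, the median difference per nuclear chromosome lay between -0.05 on chromosome 13 and 0.04 on chromosome 2, and chromosome 11, which carries Arf1, had 101 genes higher (9.69%) and 73 lower (7.01%) of 1042 tested, beside 6.98% and 7.46% over all tested genes (median 0.01).

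**Figure D4:**
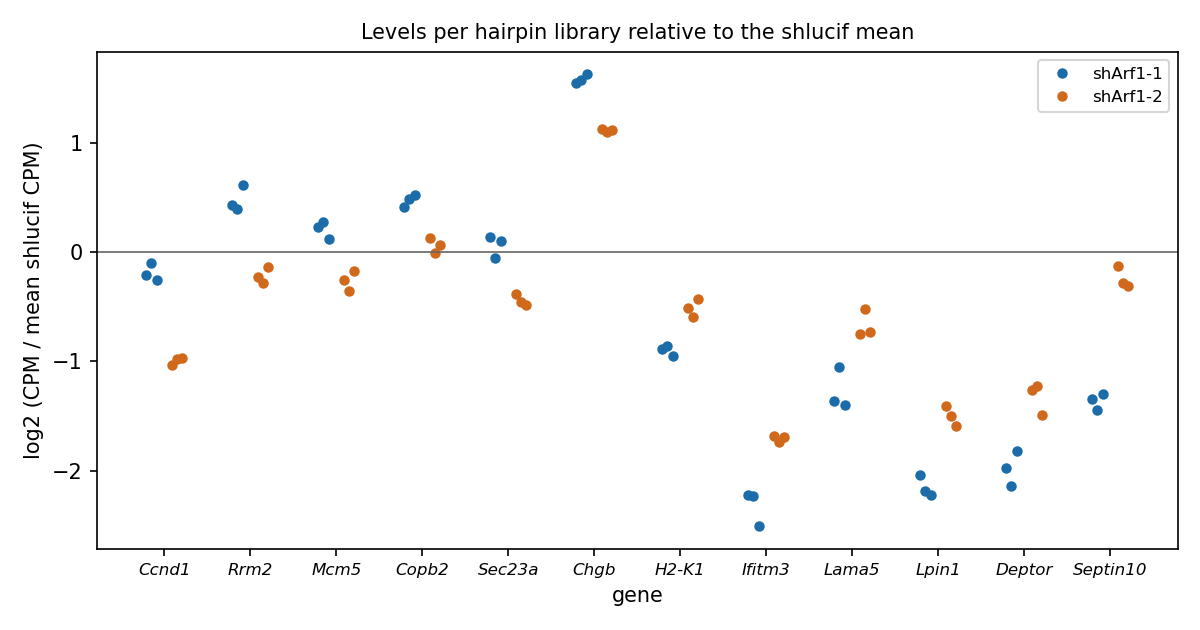
Level of 12 genes in each of the 6 hairpin libraries relative to the mean of the 3 shlucif libraries (y axis, log2 ratio of TMM-scaled CPM). Each point is 1 library, and the horizontal line at 0 is the shlucif mean. Ccnd1, Rrm2, Mcm5, Copb2, Sec23a and Chgb are lower with shArf1-2 than with shArf1-1, and H2-K1, Ifitm3, Lama5, Lpin1, Deptor and Septin10 are higher, without overlap of the hairpins in any of the 12.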

How the data were processed

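RNA was sequenced from 9 libraries in 3 groups of 3. The authors deposited a table with a whole-number read count and an FPKM per gene and library, and the submitters' processing notes name mm10. The aligner, the counting tool and the use of strand are not given in the sources used here. The deposited FPKM equalled count per length and library total to within 0.1% for 100.0% of values above 0. Of 21907 lines, 8 without a gene identifier were left out.

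Counts were fitted with edgeR 4.0.16 in R 4.3.3 (filterByExpr, TMM factors, robust quasi-likelihood fit, 9 libraries and 3 groups sharing 1 estimate of spread), and the groups shArf1-2 and shArf1-1 were contrasted, with Benjamini-Hochberg adjustment over 12448 genes and a threshold of 0.05. Alternatives were DESeq2 1.42.0, limma 3.58.1 on log2(FPKM + 1) and log2(FPKM + 0.1), other scalings and filters (among them at least 10 counts in every library), the 6 hairpin libraries alone, a replicate block and each library left out. The removal of the pair of hairpin libraries with the most replication-dependent histone counts was added after seeing the data.

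Named genes were Arf1, the Arf GTPases, the 12 largest differences in each direction with at least 5 CPM and no overlap, up to 5 members of each gene list with the largest difference past the threshold (the 2 with the most counts where none passed), genes with up to 3 mismatches to a target, and 5 genes that moved in opposite directions against shlucif. Of these, the text gives mainly the ones that passed with each library left out, a choice made after the values were seen. Macrophage, endothelial and neuroblast markers and 2 genes with 4 mismatches outside this rule were also chosen after their values were seen. The members and lists were chosen with earlier results of these data known. Target sequences were matched to the GRCm38 reference transcripts. Some genes that met the rule are not reported here.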

Additional observations from a re-analysis of the deposited data

Results flagged for a closer look

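Against shlucif, 8406 of 12448 tested genes passed the threshold with shArf1-1 and 7897 with shArf1-2. Of those that passed with both hairpins, 27 did so in opposite directions, 16 higher with shArf1-1 and 11 higher with shArf1-2. These 27 are few beside the totals. The 5 that the hairpins set furthest apart are given here because the tests against shlucif put them on opposite sides of it. Taf13, a subunit of the transcription factor TFIID, was at 15.5, 14.6 and 14.5 CPM with shlucif, 24.2, 18.3 and 20.8 CPM with shArf1-1 and 9.87, 11.5 and 11.5 CPM with shArf1-2, and differed between the hairpins by -0.95. All shArf1-1 libraries were above and all shArf1-2 libraries below the shlucif libraries. Plod2, a lysyl hydroxylase of collagen, was at 41.1, 46.5 and 46.6 CPM with shlucif, 59.3, 53.7 and 66.1 CPM with shArf1-1 and 35.0, 34.8 and 35.8 CPM with shArf1-2, a difference of -0.77. Creld2, an ER stress-induced protein, went the other way with a difference of 0.74, from 42.9, 49.0 and 42.6 CPM with shArf1-1 to 73.5, 74.4 and 76.6 CPM with shArf1-2, beside 50.5, 54.5 and 52.2 CPM with shlucif. Rrm2 differed by -0.70, with its values given above. Xpnpep1, an aminopeptidase, was at 235, 209 and 221 CPM with shlucif, 250.2, 260.3 and 229 CPM with shArf1-1 and 158, 148 and 151 CPM with shArf1-2, a difference of -0.69, with 1 shArf1-1 library inside the shlucif range.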

How the results depend on the processing

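The number of genes that differed, 1798, was 1621 with DESeq2 and lay between 1435 and 1941 over the other tools, scalings, filters and the fit of the 6 libraries alone. It was 80 with a minimum difference of 1 on the log2 scale, which asks for more by construction. Without 1 library at a time it lay between 1159 and 1977.

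Of 113 named genes other than Arf1 that passed the threshold, 103 passed with each library left out. Eif5b, Tnrc6b and Ccnd2 did not pass with limma, and Ccnd2 did not with the replicate block. Without the pair of hairpin libraries with the most replication-dependent histone counts, Eif5b, Efna3, Col1a1 and Ccnd2 did not pass and Arl5c did. The cause was not tested.

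Removal of the pair of hairpin libraries with the most replication-dependent histone counts was an alternative chosen after seeing the data. With this pair removed, the median difference was -0.26 for DNA replication and repair and -0.068 for the COPII coat. It was 0.27 for interferon-stimulated genes and 0.0055 for histone genes. With each library left out, the medians lay between -0.27 and -0.23 for DNA replication and repair, -0.22 and -0.11 for the COPII coat, 0.28 and 0.34 for MHC class I presentation, 0.17 and 0.35 for interferon-stimulated genes and -2.99 and 0.69 for histone genes. The cause was not tested.

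Some genes that did not pass the threshold and lay near 0 changed sign. Trim23 was at 0.0023 with scaling by library size, 0.0020 with upper quartile scaling, and 0.0049 and 0.0055 with limma at pseudocounts of 1 and 0.1. Without the pair of hairpin libraries with the most replication-dependent histone counts Arf2 was at 0.0096 and Ift81 at -0.064. With each library left out, the difference lay between -0.029 and 0.16 for Arf5, -0.043 and 0.058 for Ift81 and -0.063 and 0.021 for Trim23. The cause was not tested.

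With the replicate block, 1809 genes differed, of which 1733 were among the 1798. Over 9 pairs of libraries with the same number, the correlation of their deviations from the group means lay between -0.082 and 0.094 with a mean of 0.007, so the numbers were not taken to pair the libraries.

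Of the tested genes 255 had 3 or fewer counts in all 6 hairpin libraries, and no fold change is given for these.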
